A study of Homo sapiens with 6 samples.

Results

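In the 3 QKI-5 iCLIP libraries, 72 windows of 10 kb on chromosomes 1 to 22 carried many crosslink events on the plus and on the minus strand at once. Windows were chosen by their measured QKI-5 values. EPM is the number of events scaled to a library total of 1000000. A window was kept where each strand held at least 10 EPM in each of the 3 libraries. These 72 stood among 137837 windows with any event, and among 20781 windows that met the threshold on at least 1 strand, of which they were 0.347%. The other 20709 met it on 1 strand only. Their QKI-5 levels are therefore a description and not a finding.

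All 6 libraries came from BEAS2B, an established line of bronchial epithelial cells, grown in serum-containing medium and irradiated with UV at 150 mJ/cm2. The 3 QKI-5 libraries were made with a self-made antibody to QKI-5, and the 3 controls are labelled as having none. Lysates were treated with RNase A at a high or a low dilution, and which one applies to a library is not stated in the labels. Nothing in the labels says that libraries of a group came from separate cultures, so the spread behind each p-value may be technical. The QKI-5 libraries held 7283982, 2143279 and 2889146 events and the controls 137926, 41475 and 29810. One event was worth 0.137, 0.467 and 0.346 EPM in QKI-5 replicates 1 to 3, and 7.25, 24.1 and 33.6 EPM in control replicates 1 to 3. A level of 10 EPM therefore stood for 72.8, 21.4 and 28.9 events in the QKI-5 libraries and for 1.38 events or fewer in a control. No hg19 annotation or genome was used here, so windows were not assigned to genes, no sequence is shown, and the bronchial epithelial label was not checked against marker genes.

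QKI-5 is the nuclear form of Quaking, an RNA-binding protein of the STAR family that binds mainly intronic sites and takes part in alternative splicing. In iCLIP, UV light joins a protein to the RNA it touches, and reverse transcription tends to stop at the joined base, so each event marks a nucleotide and the strand of the RNA. Stretches of the genome that give RNA from both strands can hold genes that run toward each other (tail to tail), genes that run apart from a shared start region (head to head), or an antisense RNA inside another gene.

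The 72 windows lay on 18 of the 22 chromosomes. Chromosome 1 held 10, chromosome 5 held 9, chromosome 9 held 8 and chromosome 3 held 7, and chromosomes 16, 19, 21 and 22 held 0. As a share of windows at the threshold on at least 1 strand, chromosome 14 was highest (6 of 614, 0.977%), beside 0.444% on chromosome 1. The chromosomes with 0 had only 244 to 508 such windows each, beside a share of 0.347% over all chromosomes, so little can be read from them. They formed 57 runs of adjacent windows, of which 50 were single windows and 7 were longer runs with 22 windows in all. The longest run was chr5:86630001-86690000 with 6 windows, followed by chr14:62170001-62220000 with 5 and chr3:99570001-99600000 with 3. Windows of 1 run can share a transcript and are not independent. With windows up to 50 kb apart joined, 55 loci remained.

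Over the 72 windows, the median plus-strand level was 24.2, 21.2 and 22.7 EPM in QKI-5 replicates 1 to 3, and the median minus-strand level was 25.4, 21.9 and 27.3 EPM. Window means over the 3 libraries ran from 11.1 to 91.0 EPM on the plus strand and from 11.5 to 107 EPM on the minus strand. The coefficient of variation over the libraries had a median of 19.3% on the plus strand and 21.4% on the minus strand. Just inside the threshold lay chr1:154190001-154200000 and chr3:196660001-196670000, each with a lowest value of 10.02 EPM. Just outside lay chr2:100010001-100020000, whose lowest value was 9.885 EPM, and chr2:208390001-208400000, whose lowest was 9.798 EPM.

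**Figure D1:**
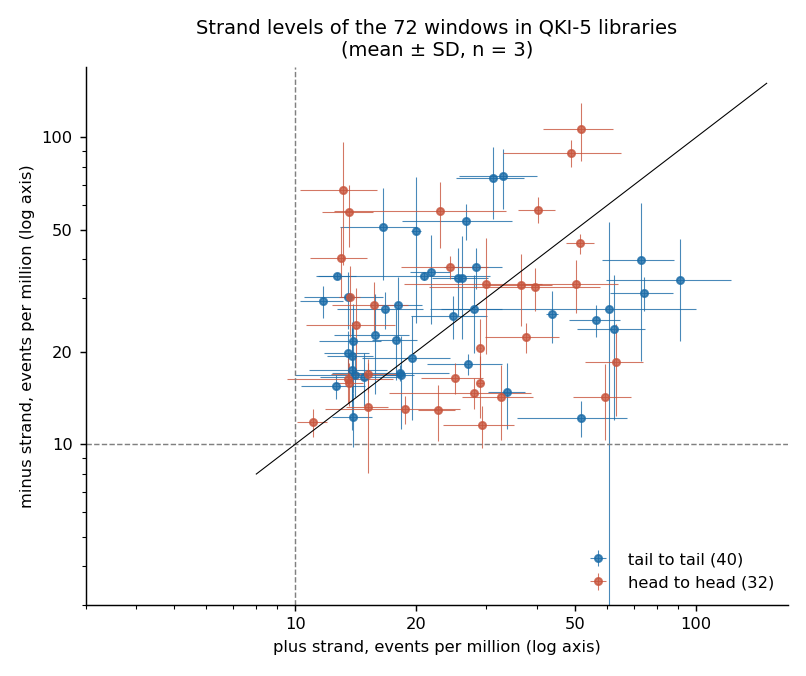
Mean level of each of the 72 windows over the 3 QKI-5 libraries, plus strand on the horizontal and minus strand on the vertical axis, in EPM on log axes; bars are 1 SD over the libraries, dashed lines the threshold of 10 and the solid line equal levels. The 40 tail-to-tail and the 32 head-to-head windows overlap over most of the range of levels.

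The 6 strongest windows, ranked by the lowest of their 6 strand-by-library values, are described one by one. The window chr2:17930001-17940000 held 63.6, 45.7 and 46.0 EPM on the plus strand and 119, 121 and 80.3 EPM on the minus strand in QKI-5 replicates 1 to 3. Its minus strand was the higher in every QKI-5 library. In the controls, 5 plus events and 2 minus events were found, all in replicate 1, with 0 in replicates 2 and 3. A count of 0 there allows up to 72.3 EPM in control replicate 2 and 100.6 EPM in control replicate 3, counting 3 events as the limit, and all such limits cover counting error only.

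On chromosome 3, 2 adjacent windows followed. The window chr3:99590001-99600000 held 54.1, 46.7 and 53.7 EPM on the plus strand and 45.9, 41.5 and 48.1 EPM on the minus strand. The strands were close to each other in every library, with the plus strand slightly higher. Its left neighbour chr3:99580001-99590000 held 36.0, 40.1 and 44.7 EPM on the plus strand and 63.7, 52.3 and 58.5 EPM on the minus strand. There the minus strand was higher in every library, so the stronger strand changed between neighbouring windows of one run. The controls held 10 plus and 6 minus events in the first window and 3 plus and 7 minus events in the second.

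The window chr8:42320001-42330000 held 60.8, 30.8 and 55.0 EPM on the plus strand and 80.0, 98.0 and 89.7 EPM on the minus strand. Plus-strand values were lowest in replicate 2, the library where the minus strand was highest. Its controls held 3, 1 and 0 plus events and 27, 9 and 1 minus events, the largest control count on any strand of a strongest window. One event was worth 7.25, 24.1 and 33.6 EPM in these controls. In EPM, the minus strand was thus higher in control replicates 1 and 2 than in any QKI-5 library. In control replicate 3 it was lower than in all of them. The window chr12:56550001-56560000 was plus-dominated, with 68.8, 89.6 and 64.7 EPM on the plus strand and 35.4, 30.3 and 27.7 EPM on the minus strand. The window chr14:62180001-62190000 held 50.4, 36.4 and 63.7 EPM on the plus strand and 32.0, 27.5 and 40.5 EPM on the minus strand, so both strands were lowest in replicate 2. In both of these windows the plus strand was the higher in all 3 libraries.

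The balance of the strands differed widely between windows. The share of a window's events on the plus strand, averaged over the QKI-5 libraries, ran from 18.7% to 80.8% with a median of 46.8%. It was above 50% in all 3 libraries in 22 windows, below 50% in all 3 in 28, and on both sides of 50% in the other 22. In 33 windows the mean share lay between 40% and 60%. The SD over the libraries had a median of 6.37 percentage points. Across the 72 windows, Pearson's r of the share between QKI-5 libraries was 0.835 for replicates 1 and 2, 0.856 for 1 and 3 and 0.716 for 2 and 3. These are descriptions across windows, which are not independent, and the windows have been chosen on these libraries.

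The most even window was chr5:86630001-86640000 with a plus share of 50.6% ± 5.94 (SD, n = 3), followed by chr12:75890001-75900000 with 50.8% ± 7.68 and chr11:61560001-61570000 with 50.95% ± 9.69. In each of the 3, the share lay above 50% in some libraries and below it in others. The least even windows were chr5:86680001-86690000 with 18.7% ± 10.9, chr12:54670001-54680000 with 80.8% ± 1.72 and chr2:61410001-61420000 with 80.3% ± 3.48. The first of these and the most even window are the 2 ends of the same run on chromosome 5. The largest SD, 17.5 points, was at chr3:158420001-158430000, a window named after its values were seen, with shares of 33.3%, 67.2% and 42.3%.

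**Figure D2:**
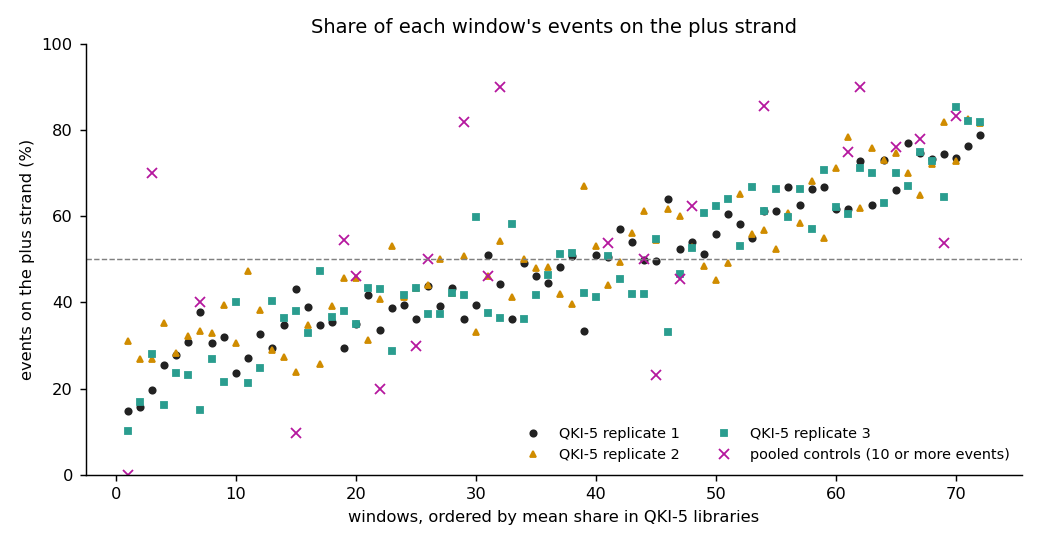
Share of each window's events on the plus strand, in percent, with windows ordered by their mean over the QKI-5 libraries; circles, triangles and squares are QKI-5 replicates 1, 2 and 3, and crosses the pooled controls of the 24 windows with 10 or more control events. The window means run from 18.7% to 80.8%, the 3 libraries lie on both sides of 50% in 22 windows, and control crosses lie on the same side of 50% in 15 of the 24 windows.

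In the controls, 59 of the 72 windows had events on both strands, 11 lacked events on 1 strand, and 2 (chr3:149670001-149680000 and chr12:56140001-56150000) had none. The median window held 4 plus and 3 minus control events over the 3 libraries together. Of the 24 windows with at least 10 control events, 15 had the same stronger strand as in the QKI-5 libraries, 7 had the other and 2 were even. The median share of the minor strand, defined as the weaker strand of the pooled QKI-5 libraries, was 36.7%, 39.4% and 37.5% in the QKI-5 libraries. In the controls it was 33.3%, 45.0% and 0%, over 68, 44 and 43 windows with events. The control range enclosed the QKI-5 values, and the means were 37.9% ± 1.38 and 26.1% ± 23.4 (SD, n = 3 each). The selection bounds this share in the QKI-5 libraries and names the minor strand from them, so no test is read from it.

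Events summed over the windows gave steadier control values. The minor strand then held 34.9%, 36.0% and 35.2% of the events in the QKI-5 libraries and 38.5%, 35.6% and 38.9% in the controls. The groups overlapped, which is again a description only. As a part of all events, the 72 windows took up 0.443%, 0.402% and 0.437% of the QKI-5 libraries and 0.307%, 0.284% and 0.302% of the controls. The QKI-5 values were all higher, but the selection of the windows used them, so no test is read from this. The control side of this comparison rests on 423, 118 and 90 events.

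Single strands were compared between QKI-5 and control with edgeR's quasi-likelihood test over all 29960 strand-specific windows that passed its filter on low counts. The test called 258 of them, or 0.861%, at a Benjamini-Hochberg adjusted p under 0.05, with 226 higher and 32 lower in QKI-5. This direction depended on the processing. With library totals in place of TMM, 23 were higher and 58 lower, and on distinct positions 26 were higher and 66 lower. All 144 strands of the 72 windows passed the filter. Their QKI-5 levels, which the selection set, were enough for that. Of these strands, 2 (1.39%) were called, both higher in QKI-5. The log2 fold change was above 0 in 124 of the 144 strands and below 0 in 20, with a median of 1.39 beside 0.78 over all strand windows tested. How many of all strand windows lay above 0 was not counted. The selection used the QKI-5 side of this contrast, so nothing is read from these counts. An unadjusted p under 0.05 was found in 57 of the 144 strands and in 5522 of all 29960.

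The first called strand was the minus strand of chr2:17930001-17940000, with 119, 121 and 80.3 EPM in the QKI-5 libraries and 14.5, 0 and 0 EPM in the controls. The listed values did not overlap, but the limit of 100.6 EPM for control replicate 3 lies above the lowest QKI-5 value. The log2 fold change was 4.05 (SE 0.90, edgeR adjusted p = 0.00677), and 11.08 without control replicate 1, which held both control events. With the remaining controls at 0, that second value depends on the prior count of the fit and is no bound. Its plus strand had a log2 fold change of 1.71 (SE 0.75, edgeR adjusted p = 0.189). The second was the plus strand of chr1:160180001-160190000, with 84.2, 125 and 63.7 EPM in the QKI-5 libraries and 21.8, 24.1 and 0 EPM in the controls. Here too the limit of 100.6 EPM for control replicate 3 lies above the values of QKI-5 replicates 1 and 3. The log2 fold change there was 2.82 (SE 0.77, edgeR adjusted p = 0.0422), and 1.08 (SE 0.77, adjusted p = 0.467) on its minus strand. The difference between the strands of a window was tested by itself, as follows. Without control replicate 1, which held most control events, the number of windows with a called strand rose from 2 to 9. The second call was lost under 7 of the other settings and the first under 2, as listed in the closing section. Without QKI-5 replicate 1 or 2 the second strand did not pass the filter, so its call could not be checked there.

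Whether the strand balance differed between QKI-5 and control was tested in edgeR as the interaction of strand and group, over 5228 windows with at least 10 events on each strand. The test called 0 windows, or 0%, and the smallest adjusted p was 0.995. An unadjusted p under 0.05 was found in 135 of the 5228 windows and in 6 of the 72. For chr2:17930001-17940000 the change in the log2 odds of plus over minus was -2.35 (SE 1.48), and for chr1:160180001-160190000 it was 1.65 (SE 1.27). On simulated counts with a 16-fold change in strand odds, this test recovered 37.8% of windows with 20 or more control events and 9.03% of those with 5 to 20. A change of balance in most of the 72 windows was therefore not detectable at this depth.

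The positions inside the windows were not used in choosing them. By the event-weighted median position of each strand in the pooled QKI-5 events, 40 windows (55.6%) were tail to tail and 32 head to head. Most of the pooled events came from replicate 1. Tail to tail here means that the plus-strand median lay to the left of the minus-strand median, and head to head the reverse. These names describe medians only and were not checked against genes. Along the run chr14:62170001-62220000 they alternated from window to window, although both strands met the threshold in each. Of 5156 other windows with at least 10 events on each strand, 52.4% were tail to tail. Among the 290 of them with 5 to 10 EPM on the weaker strand it was 59.3%, above the share in the 72. These differences in share were not tested, because adjacent windows are not independent. Between 41 and 44 of the 72 windows were tail to tail in each QKI-5 library, and 62 kept 1 order in all 3 libraries (37 tail to tail, 25 head to head). In the pooled controls the order could be read in 59 windows, and it was the same as in QKI-5 in 44 of them.

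In most windows the ranges of the strands overlapped, about as often as in the other windows. The spans from the 10th to the 90th percentile of events overlapped in 53 of the 72 windows (73.6%, beside 70.8% of the other windows), and by at least 50% of the shorter span in 47. The median distance between the strand medians was 2606 nt, beside 3283 nt in the other windows. Among the 19 windows whose spans lay apart, 14 were head to head and 5 tail to tail. The same held for the other windows, where 1281 of 1506 with spans apart were head to head. A gap between the strands was thus mostly found where the minus-strand events lay to the left of the plus-strand events.

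The widest gaps were all head to head. In chr2:17930001-17940000 the minus span ended at 17932733 and the plus span began at 17936216, a gap of 3483 nt, and the minus-strand median lay 6594, 6606 and 6565 nt to the left of the plus-strand median in the 3 libraries. In chr1:78440001-78450000 the gap between spans was 3093 nt, with 67.3, 51.3 and 71.0 EPM on the plus strand and 24.3, 19.1 and 12.1 EPM on the minus strand. In chr8:48870001-48880000 it was 2737 nt, with 12.2, 15.4 and 11.4 EPM on the plus strand and 50.1, 42.0 and 29.4 EPM on the minus strand. In these windows the minus-strand events lay to the left and the plus-strand events to the right in all 3 libraries and in the pooled controls. Among windows whose shorter span was covered to 100%, the largest overlaps were in chr9:127440001-127450000 with 7235 nt, chr7:43660001-43670000 with 7099 nt and chr3:99580001-99590000 with 7085 nt.

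Levels in the neighbouring windows mostly followed the order, less so on the plus strand of head-to-head windows. Neighbours of other windows with events on both strands were not measured, so this is not a trait particular to the 72. For tail-to-tail windows, the median plus-strand level was 17.9 EPM in the adjacent window upstream (the side from which that strand is transcribed) and 3.40 EPM downstream. On the minus strand it was 14.3 EPM upstream and 5.15 EPM downstream. The upstream neighbour was higher in 29 of 40 windows on the plus strand and in 30 of 40 on the minus strand, so on each strand the higher neighbour was mostly the one that strand is transcribed from. For head-to-head windows the downstream neighbour was the higher one more often. Its median was 10.7 EPM against 2.02 EPM upstream on the plus strand (higher in 18 of 32), and 22.4 EPM against 7.73 EPM on the minus strand (higher in 23 of 32). The plus strand of head-to-head windows was thus nearly evenly split between the sides. Neighbours include other windows of the 72 where they form runs.

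**Figure D3:**
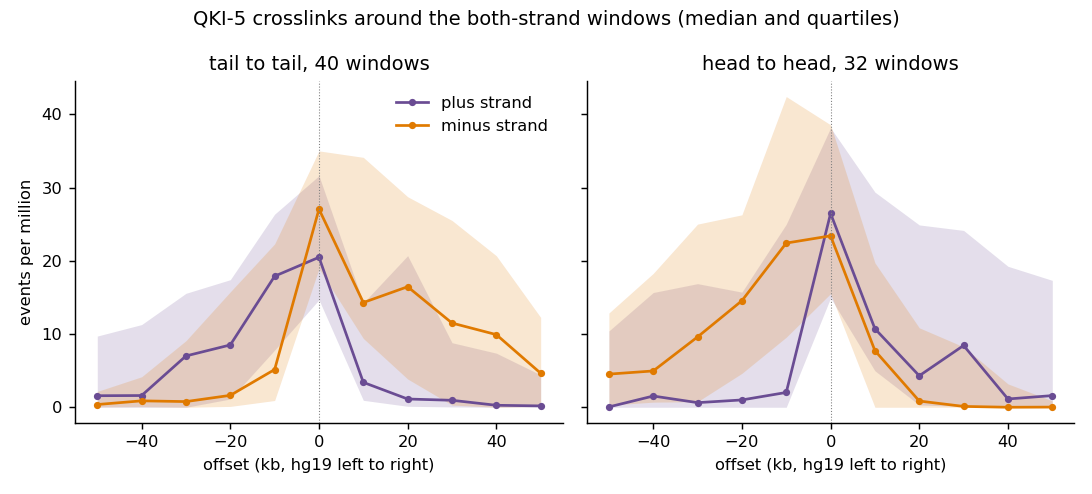
Median QKI-5 level (lines, mean of the 3 libraries per window) and quartiles (shading) in EPM for the 5 windows on each side, by strand, around the 40 tail-to-tail and the 32 head-to-head windows; the horizontal axis is the offset in kb from left to right. Plus-strand levels extend to the left and minus-strand levels to the right of tail-to-tail windows, with 17.9 and 14.3 EPM in the adjacent windows.

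At a finer scale, both strands had an event in all 3 QKI-5 libraries in a median of 4.5 of the 10 bins of 1 kb. In 11 windows this held for at least 8 bins and in 25 windows for 2 bins or fewer. In 10 windows it held for 0 bins, so there the strands met within 10 kb but in no shared kilobase by this measure. The median was 5 bins for tail-to-tail and 2.5 bins for head-to-head windows. All 10 bins were shared in chr3:99580001-99590000 and chr14:62200001-62210000, both within longer runs. The 1 kb profile of chr2:17930001-17940000 had its highest bin on the minus strand, 82.2 EPM in the second kilobase, and 0 shared bins. That of chr12:56550001-56560000, the only tail-to-tail window of the 6 strongest, had plus-strand events up to a 90th percentile at 56555091 and minus-strand events from a 10th percentile at 56556618.

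**Figure D4:**
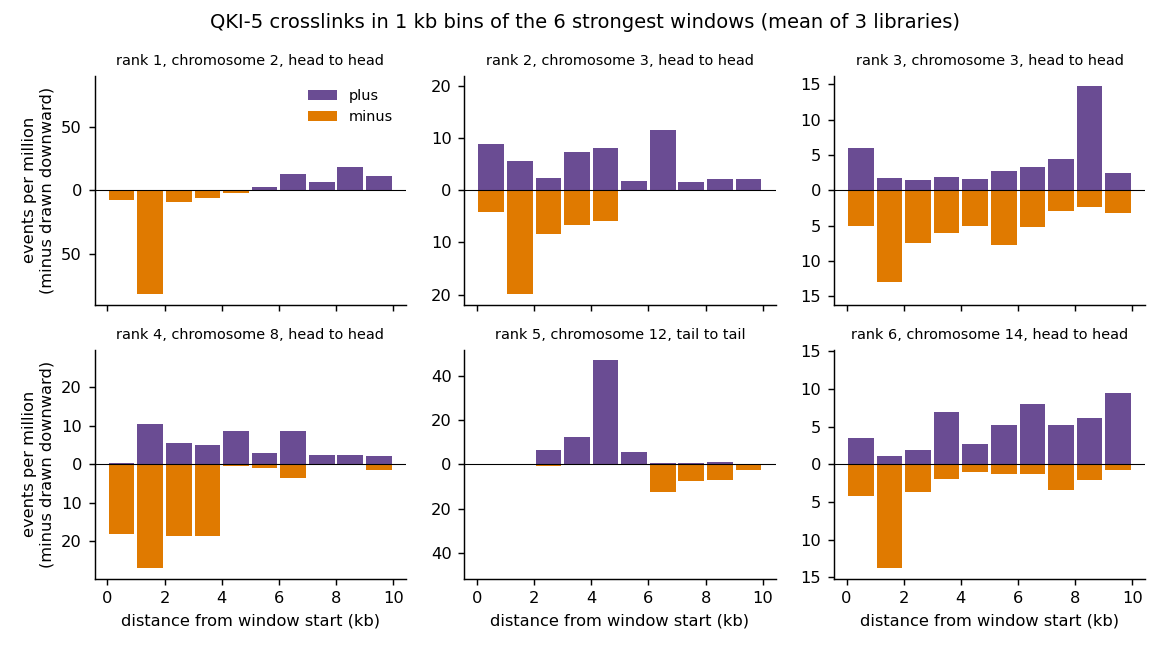
Mean QKI-5 level in EPM in the 10 bins of 1 kb for the 6 strongest windows, plus strand upward and minus strand downward, against the distance from the window's left edge in kb. The strands occupy opposite sides of the first window (chromosome 2, no shared bin) and share all 10 bins in the third (the left of the 2 windows on chromosome 3).

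Plus and minus positions were also compared nucleotide by nucleotide. Pairs of a plus and a minus position at most 10 nt apart inside the 72 windows were 1.03, 1.29 and 1.07 times as frequent in QKI-5 replicates 1 to 3 as pairs 500 to 1000 nt apart. For minus positions 11 to 50 nt to the right of a plus position the ratio was 1.23, 0.988 and 1.11. The libraries did not share a distance at which pairs were several times as frequent as in the surroundings. No nucleotide was listed on both strands in any of the 6 libraries, within or outside these windows. In QKI-5 replicate 1, 659 and 666 pairs lay 1 nt apart to either side over the whole library, and 107 and 100 within the 72 windows. Between libraries, the same nucleotide did occur on opposite strands, for example 165 times for plus positions of replicate 1 and minus positions of replicate 2, beside 156 and 174 at 1 nt to either side. The deposited lists therefore give each nucleotide of a library to at most 1 strand, and the processing step that did so is not stated in the labels.

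**Figure D5:**
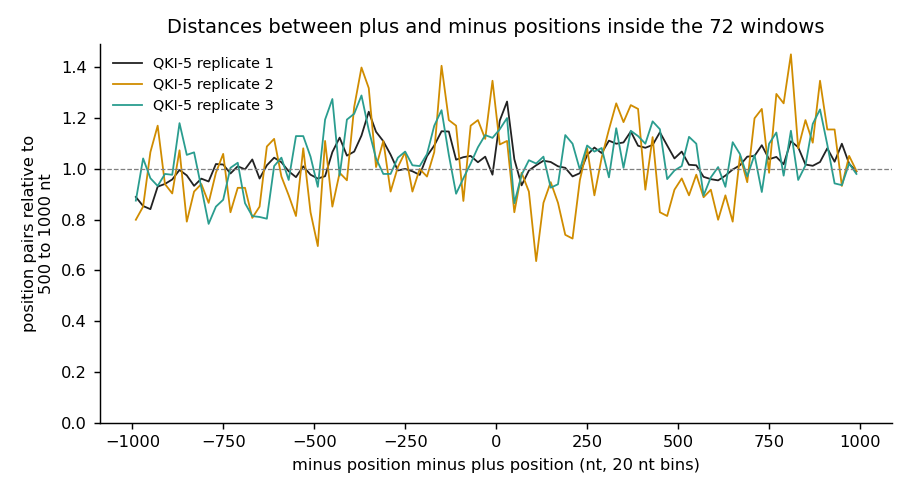
Number of pairs of plus and minus positions inside the 72 windows by their signed distance in bins of 20 nt, relative to the mean at 500 to 1000 nt, for each QKI-5 library. The lines stay around 1, and the line of replicate 2, which rests on the fewest pairs, varies most.

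The run chr5:86630001-86690000 carried both strands over 6 adjacent windows. Minus-strand means from left to right were 27.6, 51.2, 49.5, 75.1, 73.5 and 67.3 EPM, and plus-strand means were 28.0, 16.6, 19.99, 32.9, 31.2 and 13.1 EPM. The minus strand was thus the higher one in 5 of the 6 windows. To the left of the run, plus-strand levels were 38.4 and 35.7 EPM at 50 and 40 kb from its first window. The minus strand held 0.0458 and 1.67 EPM there. The windows between these and the run held 13.2, 9.57 and 12.5 EPM on the plus strand. On the minus strand they held 3.31, 8.402 and 13.4 EPM, rising toward the run. The adjacent window thus had means above 10 EPM on both strands, but it did not meet the threshold in every library. To the right of the run, the minus strand went on for 2 windows at 20.03 and 18.6 EPM, while the plus strand held 1.25 and 0.320 EPM. Minus-strand levels in this run were lowest in replicate 2 in all 6 windows, for example 84.2, 51.3 and 85.2 EPM in chr5:86670001-86680000. The controls held 2 to 12 events on the minus strand and 0 to 4 on the plus strand of each window.

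The run chr14:62170001-62220000 had the opposite balance. Its plus-strand means were 73.1, 50.2, 62.6, 28.9 and 25.6 EPM and its minus-strand means 39.8, 33.3, 23.8, 20.5 and 34.9 EPM. The plus strand was the higher one in the first 4 windows and the minus strand in the last. Plus-strand events went on at both ends, with 85.3 EPM in the window to the left and 4.47 and 29.1 EPM in the next 2 to the right. Minus-strand levels outside the run were 0.800 EPM to the left and 0.137 EPM to the right. The minus-strand signal thus began and ended with the run, within a longer plus-strand stretch.

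The run chr3:99570001-99600000 had a layout of the same kind. Its plus-strand means were 28.2, 40.3 and 51.5 EPM and its minus-strand means 37.9, 58.2 and 45.2 EPM. Plus-strand levels went on at 26.2 EPM in the window to the left and 48.5 EPM in the window to the right, where the minus strand held 8.72 and 0 EPM. In the last window of the run, chr3:99590001-99600000, minus-strand events filled only the left side, up to a 90th percentile at 99594026, and the plus-strand events ran on to a 90th percentile at 99597710.

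Most windows were not made of single strong positions. With libraries weighted equally through EPM, the highest position held a median of 3.47% of a window's plus-strand signal and 3.20% of its minus-strand signal, and above 10% on 2 plus strands and 3 minus strands. The largest share was at 61413300 in chr2:61410001-61420000, which held 25.1% of the plus-strand signal, with 42, 59 and 16 events in QKI-5 replicates 1 to 3. That window had plus-strand levels of 34.9, 66.3 and 53.7 EPM and minus-strand levels of 10.9, 14.0 and 11.8 EPM. Position 86659979 in chr5:86650001-86660000 held 11.5% of the minus-strand signal, with 51, 0 and 29 events. The strong position of the first window was thus present in all 3 libraries, and that of the second was listed in only 2.

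The window chr1:11960001-11970000 stood apart from the others in several ways. Its plus-strand levels were 38.4, 106 and 38.1 EPM and its minus-strand levels 13.0, 56.9 and 12.8 EPM, so that both strands were highest in replicate 2. It had the most control events on its weaker control strand, with 14, 24 and 1 events on the plus strand and 7, 4 and 0 on the minus strand. The events were narrow on both strands. The plus span ran from 11968230 to 11968297 and the minus span from 11969893 to 11969943, and the distance between medians was 1631, 1618 and 1628 nt in the QKI-5 libraries and 1624 nt in the pooled controls. It held 4.50 events per position on the plus strand and 3.22 on the minus strand, the highest of the 72 windows on each, beside medians of 1.40 and 1.44. Its plus strand had a log2 fold change of -1.09 (SE 0.46, edgeR adjusted p = 0.175) and its minus strand -0.44 (SE 0.62, adjusted p = 0.757). The plus-strand value was 0.18 without control replicate 2. In edgeR it was called lower with library totals in place of TMM (-1.83, adjusted p = 0.0195) and on distinct positions (-2.72, adjusted p = 1.32e-06). It was also called lower without QKI-5 replicate 2 (-2.50, edgeR adjusted p = 0.000177) and without QKI-5 replicate 3 (-1.68, edgeR adjusted p = 0.0239).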

How the data were processed

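The deposited files list single-nucleotide positions with a strand and a whole-number count of crosslink events, not normalized by the authors, 1 library per file. The reads went through cutadapt and Bowtie against hg19, per the submitters' processing notes. Tool versions and the handling of PCR copies and of reads with several alignments are not given there. Events were summed by strand in 10 kb windows and divided by the library total to give EPM. The windows, the tests and the rule for named windows were chosen with earlier results of these data known. Named are the 6 windows with the highest lowest value, the 3 most and least even, the 3 with the largest and the smallest span overlap, called strands, the 3 with most control events on the weaker control strand, windows beside the threshold and the longest run; others are described as part of a run, a summary or as named after their values were seen. Tests used edgeR 4.0.16 (R 4.3.3, limma 3.58.1) with TMM factors, filterByExpr and the group as the only term. The strand-balance test used the library and strand as terms and no scaling within a library. The edgeR test of strand windows was tested on simulated data with 26931 windows and a dispersion of 0.04. It recovered 100% of the windows changed 16-fold and made 4 false calls. The changed windows were drawn only from those with more than 10 expected events over the controls, and recovery was not split further. Only 9 of the 144 strands of the both-strand windows held 10 or more control events. The 100% is therefore not the power of the test on those 144 strands. Positions count from 1. Alternatives were other thresholds, a shifted frame, distinct positions in place of events, other scalings, no filter, DESeq2 1.42.0, a replicate block and leaving out each library.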

Additional observations from a re-analysis of the deposited data

How the results depend on the processing

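The number of both-strand windows was 362 at a threshold of 5 EPM and 17 at 20 EPM, and 71 with the frame shifted by 5 kb, where 39 of the 72 reported windows overlapped one. It was 103 on distinct positions, 69 of them shared, and 85 to 105 without one QKI-5 library, with all 72 among them. The tail-to-tail share was 58.6% at 5 EPM, 58.8% at 20 EPM, 58.3% on distinct positions and 55.1% to 60% without one QKI-5 library; in the pooled controls it was 57.6%, and 45.8% to 55.4% without one control, lowest without replicate 1. The difference in the share of library events, 0.13 percentage points, turned to -0.703 at 5 EPM, -0.439 in the shifted frame, -0.0742 without QKI-5 replicate 1 and -0.347 without QKI-5 replicate 2 (range without one library -0.347 to 0.138). The minor-strand difference of 11.8 points turned to -1.30 without control replicate 3 (range -1.30 to 26.9). Called strand windows numbered 81 with library totals (23 higher, 58 lower) and 120 with DESeq2 size factors (85 higher, 35 lower). They numbered 165 of 174732 without a filter (159 higher, 6 lower) and 581 with DESeq2's Wald test (431 higher, 150 lower). On distinct positions 92 of 20702 were called (26 higher, 66 lower). Without one library the number was 52 to 839, and without a control 52140 to 54850 strand windows were tested. Both-strand windows with a called strand numbered 1 with DESeq2 size factors, without a filter and on distinct positions, 3 with DESeq2's Wald test, and 1 to 9 without one library. On distinct positions 125 of the 144 strands were tested. Without a QKI-5 library only 892 to 951 strand windows were tested. Only 5 to 8 of the 144 strands of the 72 windows were among them, so these counts are not on equal terms with the others. With the replicate number as a block, 0 strand windows and 0 of the 72 were called (smallest adjusted p = 0.2 in edgeR, 2195 with an unadjusted p under 0.05). Same-numbered libraries had correlations of -0.00307, 0.102 and 0.0749 in their deviations from the group means. The other pairs of a control and a QKI-5 library ran from -0.106 to 0.0584, so 0.102 and 0.0749 were the highest. These values do not settle whether the numbers are pairs. The labels do not say that they are, so the block was kept as an alternative. The strand-balance test called 0 windows under every alternative run. The call of the minus strand of chr2:17930001-17940000 was lost on distinct positions (2.82) and with the block (4.23), and that of the plus strand of chr1:160180001-160190000 with library totals (2.25), DESeq2 size factors (2.61), no filter (3.31), distinct positions (1.81), the block (2.94) and without control replicate 2 (3.06) or 3 (2.71). At chr1:11960001-11970000 the plus strand turned to 0.18 without control replicate 2, and the minus strand to 0.06 without a filter, 0.42 without control replicate 1 and 0.06 without control replicate 2. Without one library the ranges there were -2.50 to 0.18 and -0.55 to 0.42. Where no cause is given, the cause was not tested.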

Other observations

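Single windows that were strong in the controls took part in the change of sign in the share of library events. At 5 EPM, with the shifted frame and without QKI-5 replicate 2, the added window at chr10:103120001-103130000 (chr10:103115001-103125000 in the shifted frame) weighed most on the control side. Its minus strand held 803, 1183 and 1230.0 EPM in the QKI-5 libraries and 11281, 2001 and 5602 EPM in the controls, while its plus strand held 12.5, 8.87 and 13.8 EPM in the QKI-5 libraries. With that window left out, the difference was 0.0833 points in the shifted frame and 0.180 points without QKI-5 replicate 2, and it was still negative, at -0.181 points, at 5 EPM. Without QKI-5 replicate 1 the window was chr22:43010001-43020000, with 553, 1759 and 1168 EPM on the plus strand in the QKI-5 libraries and 2197, 5763 and 2885 EPM in the controls. With it left out, the difference was 0.141 points. Both were chosen after their values were seen.

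Outside chromosomes 1 to 22, the 2 windows of the mitochondrial chromosome met the same threshold, and none on X or Y did. The window chrM:1-10000 held 8995, 16271 and 10824 EPM on the plus strand and 99.3, 162 and 148 EPM on the minus strand in the QKI-5 libraries. The controls held 22643, 17095 and 16270.0 EPM on its plus strand and 131, 145 and 67.1 EPM on its minus strand, so the groups overlapped on both strands, on the plus strand only in that control replicate 3 lay just under QKI-5 replicate 2. The window chrM:10001-20000 held 1015, 866 and 954 EPM on the plus strand and 297, 315 and 192 EPM on the minus strand in the QKI-5 libraries, and 964, 530.4 and 906 EPM and 210.3, 241 and 134 EPM in the controls.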
